A study of Mus musculus with 18 samples.

Results

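Open chromatin was mapped in liver macrophages (LMs) of male C57BL/6J mice by ATAC-Seq, which cuts accessible DNA with a transposase, and the regions described here were those that lay inside the first introns of coding genes. A region was taken when its midpoint was in no annotated exon, was more than 1 kb from every annotated transcription start, and fell inside the first intron of the longest transcript of a protein-coding gene in the GENCODE vM1 annotation of the mm9 genome. This gave 7483 regions, 10.9% (95% Wilson interval, 10.7% to 11.2%) of the 68533 regions on chromosomes 1 to 19 and part of 69499 in the whole list. The rule used position alone, and no measured signal entered it.

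The study crossed 3 genotypes with 2 times of day. Control mice received an adeno-associated virus that makes GFP from the hepatocyte TBG promoter, *Reverb*-hDKO mice lost floxed *Rev-erb*α and *Rev-erb*β in adult hepatocytes through Cre from the same promoter, and *Reverb/Scap*-hTKO mice lost floxed *Scap* in hepatocytes as well, so that macrophages were not the target of the deletion. All mice were fed a high-fat, high-sucrose diet (HFHSD) for 4 weeks. There were 3 libraries of each genotype at zeitgeber time (ZT) 10 and 3 at ZT22, 18 in all, each made from 50000 cells that the titles call KCs (Kupffer cells) and the cell type label liver macrophages. The deposited list gave 1 set of regions for the series, called by the authors on merged reads, but how calls from different groups were joined, which bears on the widths, midpoints and spacing given below, is not given in the sources used here. It held positions but no read count, score or library, so neither genotype nor time of day could be compared, the depth behind a region was unknown, and no test over replicates could be made. The intervals below therefore cover counting error only and do not cover the spread between mice.

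The first intron begins at the first splice site downstream of a gene's start. First introns are on average longer than the introns that follow, and they commonly hold enhancers, short stretches where transcription factors bind and act on the promoter nearby. In macrophages such elements are typically bound by PU.1, an ETS-family factor that defines the myeloid lineage, together with AP-1 and C/EBP factors. An intronic enhancer of *Csf1r*, the receptor for the growth factor CSF1, is a well-known example.

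Several regions are printed here so that their sequence can be read beside the values that follow. They were chosen by rule as the region with the most different motifs among the genes of a list. Sequences are mm9, plus strand, 5′ to 3′, and capitals mark matches to the 18 motifs searched. The region in *Ctsb*, which encodes the lysosomal protease cathepsin B, was at chr14:63751175-63751403, 9987 bp from the start, and held matches for AP-1, C/EBP, RUNX and MAF. The region in *Cd36*, a scavenger receptor for fatty acids and oxidized lipoproteins, was at chr5:17385892-17386042, 8810 bp from the start, and held 5 kinds of motif and no CpG. The region in *Bach1*, a heme-regulated repressor that pairs with small MAF proteins, was at chr16:87713327-87713570 and held an AP-1 match that ran on into a MAF match. The region in *Nr1d1*, which encodes REV-ERBα, was at chr11:98635271-98635540, 1241 bp from the start of the longest transcript, and held an E-box, the site of the clock activators BMAL1 and CLOCK, with GC boxes and 17 CpGs. The region in *Fdft1*, the squalene synthase gene of the sterol pathway, was at chr14:63783763-63783991 and held an E-box and a CTCF motif.
Ctsb: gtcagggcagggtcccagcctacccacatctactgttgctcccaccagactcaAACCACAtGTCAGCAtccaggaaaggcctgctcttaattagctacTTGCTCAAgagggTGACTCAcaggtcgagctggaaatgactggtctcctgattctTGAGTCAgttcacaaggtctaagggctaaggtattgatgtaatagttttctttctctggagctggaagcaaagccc
Cd36: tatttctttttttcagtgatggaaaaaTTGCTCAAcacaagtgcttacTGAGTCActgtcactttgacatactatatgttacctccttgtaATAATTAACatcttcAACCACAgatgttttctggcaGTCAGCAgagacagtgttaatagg
Bach1: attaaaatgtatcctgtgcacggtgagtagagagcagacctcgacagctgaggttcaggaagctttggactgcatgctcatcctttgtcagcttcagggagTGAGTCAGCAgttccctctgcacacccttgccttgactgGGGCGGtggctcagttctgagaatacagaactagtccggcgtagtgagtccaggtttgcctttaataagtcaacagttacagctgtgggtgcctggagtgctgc
Nr1d1: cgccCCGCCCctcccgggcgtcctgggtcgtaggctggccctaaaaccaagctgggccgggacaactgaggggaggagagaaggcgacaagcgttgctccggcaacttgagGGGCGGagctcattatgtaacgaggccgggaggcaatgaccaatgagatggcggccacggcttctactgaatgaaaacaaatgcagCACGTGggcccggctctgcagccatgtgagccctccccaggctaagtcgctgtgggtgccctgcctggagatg
Fdft1: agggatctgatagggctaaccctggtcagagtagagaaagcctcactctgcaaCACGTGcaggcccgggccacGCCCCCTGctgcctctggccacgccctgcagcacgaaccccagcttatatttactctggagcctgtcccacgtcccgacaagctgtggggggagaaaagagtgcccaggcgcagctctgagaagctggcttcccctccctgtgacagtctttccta

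For contrast, the only first-intron region of the Kupffer cell identity genes, in *Spic*, a PU.1 relative of iron-recycling macrophages, was at chr10:88143823-88143973 and held none of the 18 motifs. The region of the neuronal gene *Syt1*, a synaptic vesicle calcium sensor, was at chr10:108367438-108367608 and held none of them either. The second was 80515 bp from the start of its gene, and the first was 3862 bp from its own.
Spic: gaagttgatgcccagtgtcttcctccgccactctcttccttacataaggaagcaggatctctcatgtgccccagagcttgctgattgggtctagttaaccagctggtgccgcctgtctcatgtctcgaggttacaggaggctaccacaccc
Syt1: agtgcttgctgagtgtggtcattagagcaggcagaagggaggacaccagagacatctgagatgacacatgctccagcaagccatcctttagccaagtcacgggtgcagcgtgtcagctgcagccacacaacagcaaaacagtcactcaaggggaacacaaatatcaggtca

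First introns held more open regions for their length than later introns. Over 215.3 Mb of first intron that was eligible under the rule there were 34.8 regions per Mb (exact Poisson interval, 34.0 to 35.6), against 24.2 per Mb (23.8 to 24.6) in the later introns of the same longest transcripts and 15.4 per Mb (15.2 to 15.6) in intergenic sequence. The ratio of first to later introns was 1.44 (exact interval, 1.40 to 1.48). First introns made up 26.3% of the eligible intronic sequence and held 34.0% of the open regions in introns.

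Part of this difference went with distance from the start, since first introns lie nearer to it. The density in first introns was 66.6 regions per Mb at 1 to 2 kb from the gene's own start, 40.6 at 2 to 5 kb, 43.4 at 5 to 10 kb, 41.5 at 10 to 20 kb, 34.2 at 20 to 50 kb, 25.5 at 50 to 100 kb and 17.3 beyond 100 kb. In later introns the same distances gave 49.2, 30.9, 36.6, 34.6, 30.8, 28.0 and 15.7 regions per Mb. The first-intron density was therefore the higher at every distance up to 50 kb, with ratios from 1.35 (1.12 to 1.64) at 1 to 2 kb to 1.11 (1.05 to 1.18) at 20 to 50 kb. At 50 to 100 kb it was lower, with a ratio of 0.910 (0.841 to 0.984). When later introns were weighted to these distances of first introns from the own start, their density was 30.1 regions per Mb and the ratio was 1.15. By distance from the nearest annotated start of any gene, first introns were higher in every class, from 60.5 against 39.6 regions per Mb at 1 to 2 kb. At 50 to 100 kb that measure gave 16.5 (14.9 to 18.3) against 16.0 (15.1 to 16.8), and beyond 100 kb 11.9 against 8.97.

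**Figure D1:**
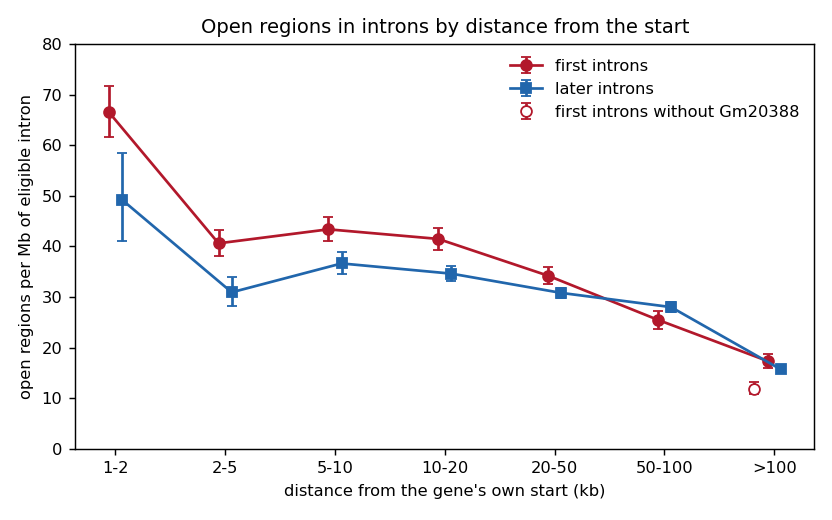
Open regions per Mb of eligible intron (y axis) against the distance from the gene's own start in kb (x axis), for first introns (red circles) and later introns (blue squares), with exact Poisson intervals as bars; the open circle leaves out the gene model Gm20388. First introns fell from 66.6 to 17.3 regions per Mb, lay above later introns up to 50 kb, and beyond 100 kb changed from above to below them without that model.

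Beyond 100 kb the value rested on a single gene model. *Gm20388* (ENSMUSG00000092329.1) is annotated on the plus strand of chromosome 8 from 122434741 to 126869622 with a first intron of 4384418 bp, which spans many other genes, and it held 297 first-intron regions. The next highest number was 29, in *4933407C03Rik*. Without *Gm20388* the density beyond 100 kb was 11.9 regions per Mb (10.8 to 13.1), and the ratio to later introns there turned from 1.11 to 0.758 (0.682 to 0.840). The ratio with later introns weighted to the same distances from the own start was then 1.12. The densities by nearest annotated start included the model. Leaving the model out took away 237 regions, of which 171 became intergenic and 63 became regions of later introns. The share of first-intron regions on chromosome 8 was 17.5% with it and 11.2% without it, and on the other chromosomes it ran from 8.09% on chromosome 13 to 12.8% on chromosome 18.

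Taken gene by gene, the first intron was not the denser one more often than the later introns were. Among 2480 genes with at least 10 kb of eligible sequence in both and with any intronic region, the first intron was denser in 1233 (49.7%, 47.8% to 51.7%) and the later introns in 1247. This even split does not show equal density. Where a gene holds a lone intronic region, whichever part holds it counts as the denser. Over all genes, later introns made up most of the eligible intronic sequence, so at equal density such a region would fall there more often. The share that equal density would give in these genes was not computed, so the split cannot be weighed against the higher pooled density.

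The midpoint of a first-intron region was a median of 14849 bp from the start of its gene, where the middle 50% of regions ran from 5660 to 38189 bp. Within 5 kb lay 22.7% of regions and within 10 kb 39.1%, while 8.46% were beyond 100 kb, or 5.48% without *Gm20388*. Within the intron the regions were spread along its length, with a median relative position of 0.513 from its upstream end. The nearest to its start was the region in *Rbms1*, an RNA-binding protein gene, at 1004 bp, just past the limit of 1 kb. The farthest outside *Gm20388* was in *Accn1*, which encodes an acid-sensing ion channel, at 994204 bp. For 67.4% of regions (66.3% to 68.4%) the start of another annotated transcript, of the same gene or of another, was nearer than the start that defined the intron. A further 129 regions fell in the first introns of more than 1 gene, and 224 also lay in a later intron of another coding gene, so the gene named for a region is its host by annotation and not a measured target.

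Of 13395 coding genes with eligible first-intron sequence, 3258 (24.3%, 23.6% to 25.1%) held at least 1 open region there. Exactly 1 was found in 1747 genes, 2 to 4 in 1152, 5 or more in 359, and 10 or more in 58. After *Gm20388* and *4933407C03Rik*, the genes with most were *Prkce*, a protein kinase C, with 19, *Arhgap26*, a GTPase-activating protein, with 18, *Ninj2*, a cell adhesion gene, with 18, *Iqsec1*, an ARF exchange factor, with 17, and *Litaf*, *Ptprj* and *Zfp710* with 16 each. LITAF acts in endosomes and lysosomes and was named for induction by lipopolysaccharide, and *Ptprj* encodes a receptor-type tyrosine phosphatase of hematopoietic cells. The introns of these genes ran from 56062 bp in *Zfp710* to 256987 bp in *Arhgap26*, so high counts went with long introns.

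Per length, the order was different. The first intron of *Bcl6*, a transcriptional repressor that restrains inflammatory genes in macrophages, held 6 regions in 9262 eligible bp, or 6.48 per 10 kb. *Scnn1a*, an epithelial sodium channel subunit, held 5.86 per 10 kb, *Kif21b*, a kinesin, 5.76, *Jup*, a junction plakoglobin, 5.57, and *Ctsb* 5.08. Each of these 5 genes had an open start.

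Genes whose own start was open held more first-intron regions. A start was called open when a region of the list had its midpoint within 1 kb of any annotated start of the gene. The own start was open in 81.1% (79.7% to 82.4%) of genes with a first-intron region and in 60.1% (59.1% to 61.1%) of eligible genes without one. Density was 47.4 regions per Mb (46.2 to 48.5) in the first introns of the 8736 genes with an open start and 13.5 (12.7 to 14.3) in those of the 4659 genes without. Without *Gm20388*, which has an open start, the first of these was 46.5.

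The difference held in every class of intron length. For genes with up to 2 kb of eligible sequence the densities were 72.5 and 22.6 regions per Mb, and for 2 to 5 kb, where they were closest, 48.5 and 31.8. Over 50 kb they were 38.3 and 7.34, and 35.7 for open starts without *Gm20388*. Of the 978 genes with over 50 kb, 642 held a region, and 483 of these (75.2%) had an open start against 128 of 336 (38.1%) of the genes with none. Since both kinds of region came from the same list, depth and calling threshold were shared between them, and their part in the difference was not tested.

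**Figure D2:**
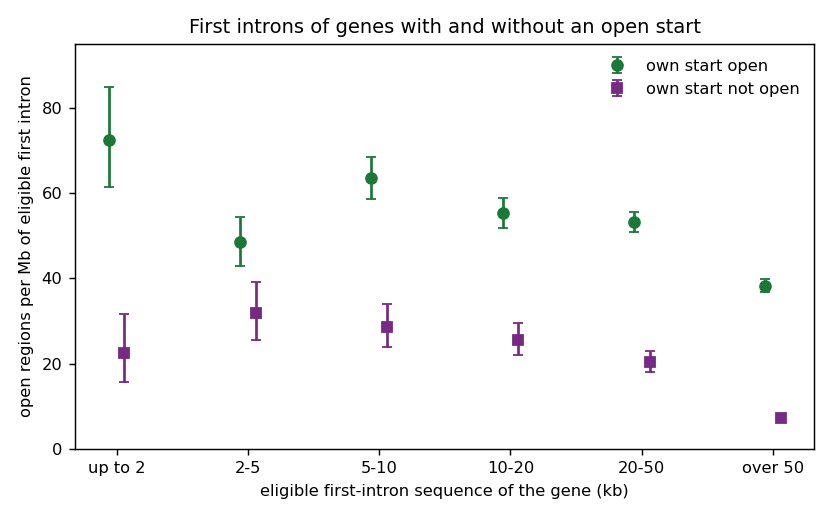
Open regions per Mb of eligible first intron (y axis) for genes grouped by their kb of eligible first-intron sequence (x axis), where the gene's own start was open (green circles) or not open (purple squares), with exact Poisson intervals. The open-start genes were higher in all 6 length classes, closest at 2 to 5 kb (48.5 and 31.8) and farthest apart in ratio over 50 kb (38.3 and 7.34).

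The labelled cell type was checked against lists of marker genes. First introns of the macrophage surface and phagocytosis genes held 20 regions in 8 of 15 eligible genes, 205 per Mb (125 to 316), and those of the macrophage transcription factors 35 regions in 9 of 14, 85.8 per Mb (59.7 to 119). First introns of all coding genes gave 35.0 per Mb when a region shared by several genes was counted once for each. That value pools genes whose density, by intron length and open start, ranged from 7.34 to 72.5 per Mb. The gene lists here and below were not matched to it for either. The part of intron length and open starts in the differences between lists was not tested. The neuron and muscle genes held 3 regions in 2 of 17 genes, 8.58 per Mb (1.77 to 25.1). Genes of other liver cells were not without regions. Endothelial genes held 21 regions in 9 of 18, 75.8 per Mb (46.9 to 116), hepatocyte genes 7 in 5 of 14, 55.4 per Mb (22.3 to 114), stellate cell genes 4 in 4 of 15, 31.5 per Mb (8.57 to 80.5), and other leukocyte genes 7 in 5 of 13, 65.7 per Mb (26.4 to 135). An open region does not show which cells of the preparation it was open in, and the part of endothelial cells, hepatocytes or other leukocytes in the list was not tested.

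At the starts of the same genes, 17 of 24 macrophage surface genes, 21 of 22 macrophage transcription factors, 24 of 24 hepatocyte genes, 18 of 22 endothelial genes, 9 of 20 stellate genes, 8 of 20 other leukocyte genes and 5 of 22 neuron and muscle genes were open, where 57.7% of all coding genes were. Of the Kupffer cell identity genes, the list closest to the sample titles, 10 of 15 had an open start, and their first introns held 1 region, or 45.3 per Mb (1.15 to 253). Hepatocyte genes had open starts throughout and 55.4 first-intron regions per Mb, with an interval that overlaps those of the Kupffer cell identity genes and the macrophage transcription factors. The counts are small, and the intervals of the lists with fewer than 10 regions span several-fold ranges.

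**Figure D3:**
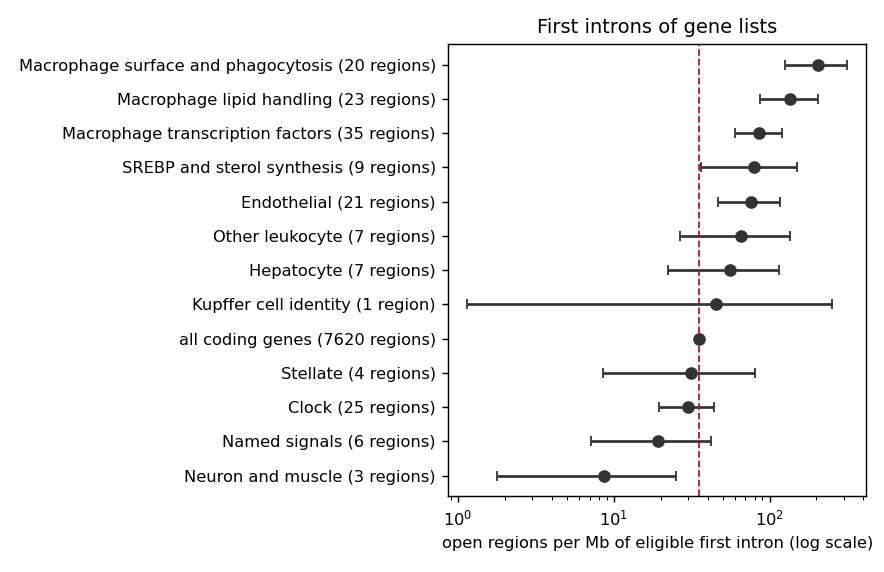
Open regions per Mb of eligible first intron (x axis, log scale) for 12 gene lists and all coding genes (y axis, with the number of regions), as points with exact Poisson intervals; the dashed line marks all coding genes at 35.0 per Mb. Macrophage surface genes stood highest at 205 and neuron and muscle genes lowest at 8.58, and the interval of the Kupffer cell identity list, with 1 region, ran across most of the axis. The lists were not matched for intron length or open starts.

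The macrophage genes varied in where their regions lay. *Csf1r* held 3 regions between 2047 and 2777 bp from its start, and its own start was not open in the list. *Cx3cr1*, the fractalkine receptor of monocytes and resident macrophages, held 3 regions from 9473 to 13304 bp, also without an open start. *Fcer1g*, the signaling chain shared by Fc receptors, held 1 region at 1736 bp and had no open start. *Stab1*, a scavenger receptor of macrophages and sinusoidal endothelium, held 3 between 1347 and 2429 bp. *Laptm5*, a lysosomal protein of hematopoietic cells, and *Mertk*, a receptor for apoptotic cells, held 2 each, and *Mrc1*, the mannose receptor, held 1.

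*Ctsb* held the most of this list, with 5 regions from 1503 to 9987 bp. The last of these is the sequence printed above, in which the AP-1 motif occurs in the form TGACTCA and again as TGAGTCA. No region was found in the later introns of *Ctsb*, *Csf1r*, *Cx3cr1*, *Laptm5* or *Fcer1g*, whereas *Mertk* had 5 there and *Mrc1* had 4.

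Among macrophage transcription factors, *Rxra*, the partner receptor of PPARs and LXRs, held 12 regions from 2767 to 51003 bp. *Mitf*, a regulator of lysosomal and osteoclast genes, held 8, of which 7 lay between 59742 and 86784 bp from the start of the longest transcript. *Bach1* held 4, *Rbpj*, the nuclear mediator of Notch signals, held 3, and *Mef2c*, *Stat3* and *Tcfec* held 2 each. *Maf* held 1, and *Sfpi1*, the older symbol of the PU.1 gene in this annotation, held 1 at 4161 bp with an NF-kB motif. *Tcfec* was the only gene of this list with a region and no open start.

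The Kupffer cell identity genes gave almost nothing to count. Their 10 eligible genes had 0.0221 Mb of eligible first intron together, and the only region was the one in *Spic*, with the density given above. The eligible length is too short here to show whether these introns differed from the average.

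Genes that handle lipid in macrophages held 23 regions in 9 of 16 eligible genes, 136 per Mb (86.3 to 204). Of all eligible coding genes 24.3% held a region, at 35.0 per Mb. *Cd36* held 6, from 8810 to 49166 bp from its start. *Abca1*, the cholesterol exporter to lipid-poor apolipoprotein, held 5 between 4212 and 15567 bp, together with 12 in its later introns. *Scarb1*, the HDL receptor, held 5 between 9796 and 35223 bp and had none in later introns. *Npc1*, which moves cholesterol out of lysosomes, held 2. *Abcg1*, *Npc2*, *Ppard*, *Soat1* and *Gpnmb* held 1 each, and *Gpnmb*, a glycoprotein of lipid-laden macrophages, was the only one of these genes without an open start. Within 75 bp of the midpoint, 7 of the 23 regions held a C/EBP motif, 2 an AP-1 motif and 1 a PU.1 motif. Over all first-intron regions the shares were 9.70%, 7.32% and 4.17%, and most of the C/EBP matches here were in *Cd36*. In the same order, these strings were in 2, 3 and 1 of the 20 macrophage surface regions. Of the 35 macrophage transcription factor regions they were in 4, 3 and 0.

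Genes of the SREBP pathway, the subject of the deletion in hepatocytes, had 9 regions in 6 of 15 eligible genes, 78.9 per Mb (36.1 to 150). *Scap*, the escort of SREBPs out of the endoplasmic reticulum, held 3, from 8886 to 19131 bp. *Srebf2*, which encodes the sterol-regulating SREBP2, held 2 at 17095 and 18307 bp. *Insig2*, which retains SCAP, *Fdft1* and *Lpin1*, a phosphatidate phosphatase, held 1 each. The start was open in 18 of 18 annotated genes of the list, against 57.7% of all coding genes. No first-intron region was found in *Acaca*, *Acly* or *Fasn*, the last of which had only 325 eligible bp.

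Clock genes held 25 regions in 10 of 17 eligible genes, or 58.8% of genes (36.0% to 78.4%) against 24.3% of all coding genes. Per length the value was 29.9 regions per Mb (19.4 to 44.2) against 35.0, and 24 of 24 genes had an open start. Of the 25, 14 were in *Rora*, an activating receptor that competes with REV-ERBs for the RORE, spread from 2599 to 530365 bp over a first intron of 542102 bp. *Cry1*, a repressor of BMAL1 and CLOCK, held 2, and the one at 23078 bp contained a RORE. *Per2* also held 2, at 2644 and 3274 bp, and had 7 in later introns. *Nr1d1*, *Per1*, *Cry2*, *Nfil3*, *Npas2* and *Arntl*, the gene of BMAL1, held 1 each, the first 2 of them within 2 kb of their starts. *Clock*, *Csnk1d* and *Csnk1e* held none, and *Clock* had only 45 eligible bp.

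A list of signaling genes, made up of ligands, receptors and transcription factors that the study names together with TGF-β pathway genes, held 6 regions in 4 of 9 eligible genes, 19.3 per Mb (7.10 to 42.1). That interval includes the 35.0 per Mb of all coding genes. The share of genes, 44.4% (18.9% to 73.3%), likewise had an interval that includes their 24.3%. *Tgfbr2*, a TGF-β receptor, held 3 at 18512, 29760 and 38203 bp, and *Tgfbr1*, *Vdr*, the vitamin D receptor, and *Pdgfrb*, the PDGF receptor, held 1 each. No region was found in the ligand genes *Pdgfd* and *Bmp5* or in *Bmpr1a*, a BMP receptor gene, over 116290, 50439 and 39021 eligible bp; these 3 were chosen after their values were seen.

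Among the genes listed for other cells, *Fli1*, an ETS factor gene not confined to endothelium, held 7 of the 21 endothelial-list regions. The ETS factor gene *Erg* held 1, and *Cdh5*, the endothelial cadherin, held 1. None of these 3 genes had an open start. *Pecam1*, which leukocytes also express, held 4, and *Flt4*, the VEGF receptor 3 gene, held 3 with no open start. In the hepatocyte list the regions were in the transcription factor genes *Hnf4a* and *Nr1h4*, with 2 each, and, with 1 each, *Foxa3* and *Onecut1* among others. *Cd4*, expressed by T cells and by some macrophages, held 3 without an open start. Over the 12 lists together, 71 different genes held a first-intron region, and the own start was not open in 15 of them. This was close to the share over all genes with a first-intron region, of which 81.1% had an open start.

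Motifs were searched as fixed strings on both strands in windows that reached 75 bp to either side of the midpoint. The PU.1 string was GAGGAAGT, the AP-1 string TGACTCA with TGAGTCA as its other strand, the C/EBP string TTGCNNAA, the HNF4 string CAAAGTCCA, the E-box CACGTG, the RORE TAGGTCA, the MAF string TGCTGAC and the GC box GGGCGG. Those of the remaining factors were CCGGAAGT for ETS factors in general, CAGGGGGC for CTCF, TGTTTAC for FOXA, GTTAATNAT for HNF1, GAAANNGAA for IRF, CTAAAAATA for MEF2, TGTGGTT for RUNX, TGATAAG for the erythroid and endothelial GATA family, AACAATGG for SOX and GGGANTTTC for NF-kB. AP-1 and MAF matches can share bases, as in *Bach1*. A match is a description of letters and not of binding. The PU.1 string was in 4.17% of first-intron windows (3.74% to 4.65%) and in 0.875% of windows placed 1000 bp to either side of the same midpoints, a ratio of 4.76. The AP-1 string was in 7.32% (6.75% to 7.94%) against 2.59% at the sides. C/EBP matched 9.70% against 5.59%, the E-box 5.10% against 2.20%, MAF 4.82% against 2.20%, and RORE 2.43% against 1.47%.

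The highest ratio to the sides, 5.23, belonged to HNF4, a string of a hepatocyte and epithelial receptor, though it was in only 0.909% of first-intron windows (0.717% to 1.15%). In later introns it was in 1.24% of windows. Over all 68533 regions the PU.1 string was in 3.35%, AP-1 in 5.70%, C/EBP in 8.82%, the E-box in 5.01%, MAF in 4.43%, RORE in 2.05%, HNF4 in 0.824%, IRF in 4.22%, RUNX in 3.89%, the GC box in 15.1%, ETS in 1.38% and CTCF in 1.78%. For 6 strings, those of IRF, GATA, RUNX, MEF2, SOX and NF-kB, the shares in first-intron regions and beside them had intervals that overlapped. The IRF string was in 4.86% against 5.02%, that of GATA factors in 1.48% against 1.54%, and the RUNX string in 4.33% against 3.88%.

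For PU.1 and AP-1, first-intron regions lay close to other regions away from starts. PU.1 was in 4.11% of later-intron and 3.79% of intergenic windows, and AP-1 in 6.83% and 7.14%. Windows at gene starts differed, with PU.1 in 2.00%, AP-1 in 2.73%, the ETS string in 3.51% against 0.441% in first introns, and the GC box in 37.6% against 5.56%. In later introns the GC box was in 4.31% (3.99% to 4.65%), below the first-intron interval of 5.06% to 6.10%. Within first introns the GC box fell from 8.34% of windows (7.12% to 9.75%) at 1 to 5 kb from the start to 3.32% (2.18% to 5.02%) beyond 100 kb, and in later introns at the same distances it was 8.32% and 3.48%. The string of CTCF, the factor that bounds chromatin loops, was in 1.18% of first-intron windows and 2.48% at gene starts.

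**Figure D4:**
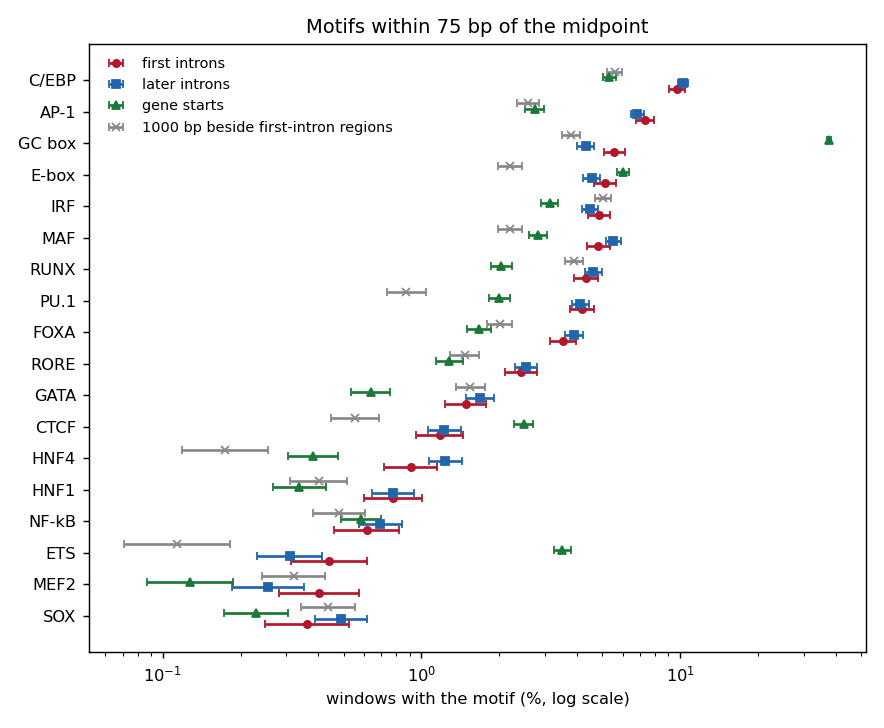
Share of windows reaching 75 bp to either side of the midpoint that hold each of 18 motifs (x axis, percent, log scale) for first introns (red circles), later introns (blue squares), gene starts (green triangles) and windows 1000 bp beside first-intron regions (gray crosses), with 95% Wilson intervals. First and later introns had overlapping intervals for every motif but the GC box (5.56% and 4.31%). PU.1 (4.17%) and AP-1 (7.32%) stood above the windows beside them (0.875% and 2.59%), and the GC box reached 37.6% at gene starts.

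None of the 18 strings was found in 54.6% of first-intron windows, 1 kind was found in 34.6%, and 2 or more in 10.9%. PU.1 and AP-1 met in the same window in 25 regions, PU.1 and C/EBP in 21, and AP-1 and C/EBP in 42. Singly, PU.1 was in 312 windows, AP-1 in 548 and C/EBP in 726. Whether pairs met more often than these single counts would give was not tested. The most kinds in 1 window was 5, which is the number in the *Cd36* region above.

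PU.1 and AP-1 matches were not centered on the midpoints. In bins of 50 bp, PU.1 matches reached 0.382 per kb in the bin just below the midpoint in genome coordinates and 0.243 per kb in the bin just above it, and AP-1 matches 0.644 and 0.444 per kb. Within 100 bp of the midpoint, 63.4% of PU.1 matches (58.6% to 68.0%) and 63.5% of AP-1 matches (59.9% to 66.9%) lay toward lower coordinates, with median offsets of -23 bp and -21 bp. Not every string was offset. The share was 49.9% for the GC box, with a median offset of 0 bp, and 50.1% for IRF, which had no peak. For CTCF it was 56.8% (47.8% to 65.4%), with a median offset of -13 bp. That interval includes the shares of both the GC box and PU.1, so CTCF could not be placed with either. Windows moved 40 bp toward lower coordinates held PU.1 in 4.54% of first-intron regions and AP-1 in 8.00%, of which the second was above the interval of the centered windows. How the authors' caller placed the ends of a region, and its part in this offset, was not tested.

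**Figure D5:**
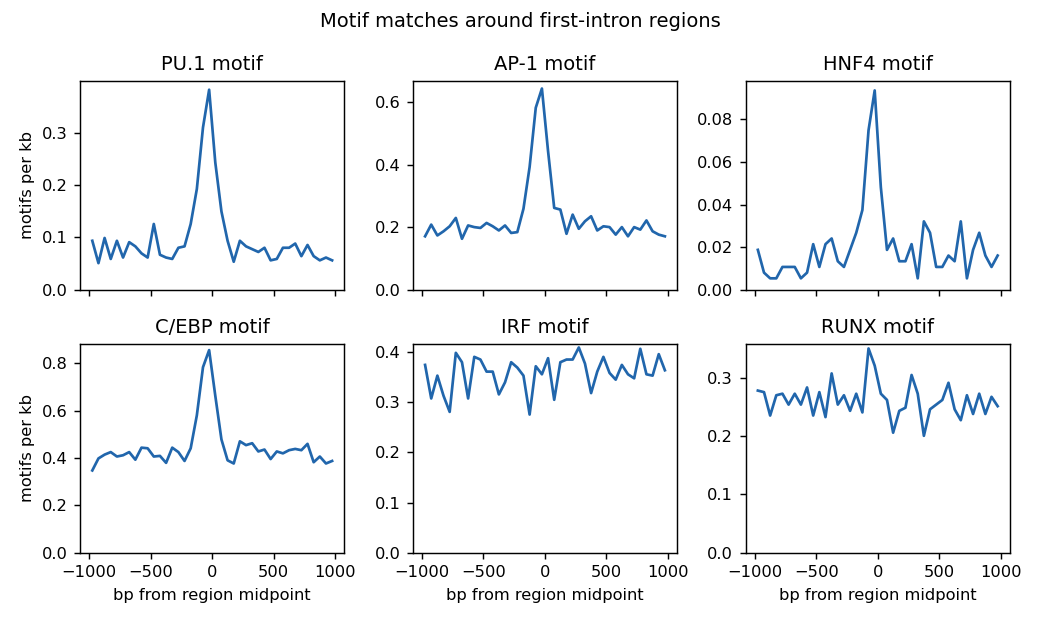
Motif matches per kb (y axis) in bins of 50 bp against the distance in bp from the midpoint of first-intron regions in genome coordinates (x axis), 1 panel per motif. PU.1, AP-1, HNF4 and C/EBP peaked just below 0 (0.382, 0.644 and 0.0935 per kb for the first 3), whereas IRF stayed flat.

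First-intron regions were about as narrow as other distal regions and lay closer to other regions of the list than later-intron regions did. The mean width in first introns was 180 ± 44.9 bp (SD over regions), against 179 bp in later introns and 182 bp in intergenic sequence. Exactly the commonest width was found in 54.3% (53.2% to 55.4%) of first-intron regions. It was also the lowest among them and equal to that of the motif windows. The share was 56.1% in later introns, 51.3% in intergenic sequence and 30.3% at gene starts. The widest, at 555 bp, was in *Arid1a*, a subunit of the SWI/SNF chromatin remodeler. The nearest other region of the list was a median of 3003 bp away, against 4925 bp for later introns, and lay within 1 kb for 22.7% (21.7% to 23.6%) against 18.5% (17.9% to 19.2%). That nearest region could be of any class, gene starts included. To the next region of the same first intron the median gap was 4601 bp.

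In base composition they resembled the other distal regions. GC content was 51.0 ± 6.35% over the 7483 windows, 50.4 ± 6.06% in later introns, 50.5 ± 6.76% in intergenic regions and 61.2 ± 9.46% at gene starts. CpGs numbered 2.49 per window on average against 9.95 at gene starts. At 1 to 5 kb from the start the mean was 3.13 CpGs and at 5 to 20 kb it was 2.29. The region with most CpGs, 48 of them in the 300 bp around its midpoint, was in *AB041803*, 1860 bp from its start.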

How the data were processed

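LMs of 18 mouse liver samples were assayed by ATAC-Seq. Per the labels and the study's methods, the authors used Bowtie for alignment to mm9 and called open regions after pooling the alignments of replicates, and HOMER for read counts; software versions and the calling threshold are not given in the sources used here. The deposited file holds positions only, with no count, signal, score or p-value, so how calls depend on depth could not be examined, and starts, which count from 0 in the file, were printed from 1. No group comparison was made. Regions were placed by their midpoints against GENCODE vM1 on NCBIM37, the mm9 assembly, with Python 3.11.15, NumPy 2.4.6, SciPy 1.17.1 and pandas 2.3.3; 966 regions off chromosomes 1 to 19 were left out. Eligible sequence was intron outside exons and more than 1000 bp from every start. Intervals are 95% Wilson for shares, exact Poisson for densities, exact conditional binomial for density ratios and order statistics for medians. Named genes were those with most regions, those densest, and those with most in each of 12 gene lists, in which *Spi1*, *Tfec* and *Map2* were matched by an older symbol (*Sfpi1*, *Tcfec*, *Mtap2*) and *Vsig4* and *Hmgcs1* were not analysed here; up to 4 eligible genes without a region were named for the clock and SREBP lists. Some genes counted in the lists are not reported here by name. The members, lists and motifs were chosen with earlier results of these data known. The placement and the motif search were tested on simulated data.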

Additional observations from a re-analysis of the deposited data

How the results depend on the processing

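The 12 main results were recomputed under 10 other settings, 8 of them planned and 2 (without *Gm20388*, and windows moved 40 bp lower) chosen after seeing the data. Of 103 values, 73 stayed inside the counting interval of the reported value, or within 1.5 times of the reported number. Only the 2 density ratios had a direction that could reverse, and neither did. The ratio beyond 100 kb, which reversed without *Gm20388*, was not among the 12. The causes of the 30 moves were not tested except where the setting fixes them. For GC content the counting interval took each base as independent, which makes it narrow, so small differences in GC count as moves. With regions over 2000 bp from every start, the share of regions in first introns was 9.36%, the density ratio to later introns 1.38, the median distance 17876 bp, the share of genes with a region 26.0% and GC content 50.8%. With the first intron of any transcript these were 14.4% of regions, 11675 bp, 26.7% of genes and 50.9% GC. Asking the whole region to be in the intron and in no exon gave density ratios of 1.50 overall and 1.44 within 1 to 10 kb of the start, where the reported value was 1.29. The eligible sequence was not trimmed to match, so both ratios rose only because later introns lost a larger share of their regions. With regions of at least 200 bp, 1955 remained, 9.30% of regions, with a density ratio of 1.55, a region in 9.63% of genes, an open start in 54.3% of these, AP-1 in 8.18%, CTCF in 1.48% and 52.2% GC; starts too were then called open only by such wide regions, which by construction lowers the open share, and the share of the commonest width was not run there. Joining regions at most 500 bp apart gave 11.5% in first introns, 50.5% of the commonest width and 50.7% GC. First introns outside other coding genes gave 10.4% of regions. Without *Gm20388* the share was 10.6%, the median distance 14043 bp and GC 50.9%. Searching whole regions gave PU.1 in 4.72%, AP-1 in 8.35% and 51.2% GC, and windows moved 40 bp lower AP-1 in 8.00%. With exons and starts of coding genes alone, no value moved past these limits. No paired analysis was possible because the deposited list holds no value per library. Depth was unknown, so a first intron without a region cannot be called closed.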
